A study of Mus musculus with 281 samples.

Results

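Wild-type intermediate cells (IMCs) of the cochlear stria vascularis (SV) are the cells described here, and 87 cells were members, beside 85 other wild-type cells and 40 Slc26a4+/- and 69 Slc26a4-/- cells that make up the rest of the series. Each cell got 5 scores, every score being the mean log2(CPM + 1) of 4 genes, where CPM is the estimated count of a gene scaled to the total count of its cell. The IMC genes were Kcnj10, Met, Dkk3 and Nrp2. The other sets were spindle cells (SCs; Anxa1, Wfdc18, Krt18, P2rx2), root cells (RCs; Epyc, Fxyd6, Lum, Gas1), marginal cells (MCs; Kcnq1, Kcne1, Lrp2, Dnase1) and a set with no cell type name here, called the Otx2 set (Crhbp, Slc26a7, Vmo1, Otx2). A cell was a member if it had 20000 counts or more and its IMC score led the next score by 1 or more on the log2 scale. These scores chose the members, so the levels of the 4 rule genes and every comparison of the IMCs with the other sets are a description, and no test was made of them.

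The study picked single cells from dissociated SV with a glass micropipette and profiled each with Smart-Seq2, a full-length method with no molecular identifiers. All wild-type mice were Slc26a4+/+ on the 129S6 strain, with no treatment named in the labels, and members were labelled with ages from P22 to P42. The series also holds Slc26a4+/- and Slc26a4-/- cells, of which 23 of 40 and 39 of 69 met the same rule, and they are not compared here. No mouse is named in the labels, so cells that share a mouse cannot be recognised and cells are not replicates of a condition. Each profile carries a run date and a number that reads as a day, which with the labelled age divide the members into 4 runs and 22 collection sessions.

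IMCs are the pigment-bearing cells of the middle layer of the SV. They derive largely from the neural crest, are related to melanocytes, and lie between the MCs, which face the endolymph, and the basal cells. Through the inward rectifier Kcnj10 they pass K+ into the thin space below the MCs, a step in making the endocochlear potential on which hearing depends, and they join the basal cells through gap junctions.

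Members made up 50.6% of the wild-type cells (95% exact binomial interval 42.9 to 58.3%, counting error only). As cells were picked by micropipette, this share describes the cells collected and not the tissue, and the interval leaves out differences between runs. The other wild-type cells were 23 SCs, 13 RCs, 17 MCs, 10 cells of the Otx2 set and 22 cells of no set. Runs 1 to 4 gave 30, 15, 35 and 7 members, which were 57.7, 57.7, 46.7 and 36.8% of the wild-type cells of those runs. Members held 20901 to 5452520 estimated counts (median 990585) and 1857 to 9655 detected genes (median 5618). Members of run 1 were the shallowest, with a median of 164038 counts against 1226240 to 1831850 in runs 2 to 4. No 2 wild-type profiles were identical.

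The rule genes were high in nearly all members. Kcnj10, on chromosome 1 (172341210 to 172374085, GRCm38), ranged from 0 to 8899 CPM with a median of 3120 CPM. Met, which encodes the receptor of hepatocyte growth factor (chromosome 6, 17463800 to 17573980), ranged from 2.12 to 7157 CPM with a median of 2172 CPM. Dkk3, a secreted member of the Dickkopf family, had a median of 3703 CPM, and Nrp2, a receptor of semaphorins and VEGF, had 1749 CPM. Of the 87 members, 80 held 10 or more counts of all 4 rule genes, 3 held this many of 3 genes, and 4 of 2 genes or fewer. The IMC score had a median of 11.35, and its lead over the next score had a median of 7.001 and ranged from 1.68 to 10.76.

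Of the 87 members, 6 had a low IMC score, a count set by a gap in the score between 6.17 and 8.27. WT_036, WT_111, WT_010 and WT_098 went against the name in the genes given here, while WT_072 and WT_022 are listed with them by score alone. WT_036 had the lowest score (3.05) and was led by B cell and cycling cell genes, with Ighm at 5929 CPM, Cd24a at 5607 CPM and Top2a at 3249 CPM. WT_111 held neutrophil precursor genes, with Lyz2 at 36433 CPM, Fcnb at 21884 CPM and Mpo at 8508 CPM. WT_010 was led by the outer hair cell motor gene Slc26a5 (8509 CPM) and by the stereocilia myosin Myo15 (7550 CPM). WT_098 held Slc4a11 (21530 CPM) and Otos (13742 CPM), which fibrocytes of the lateral wall are known for. WT_072 held 7396 counts of Dkk3 but 0 to 2 of the other rule genes, with Dct at 26801 CPM, Gpnmb at 12452 CPM and the haemoglobin genes Hbb-bs and Hba-a1 at 14169 and 12176 CPM. WT_022 was shallow, with 28396 counts, of which Galntl6 took 163192 CPM, a gene that reached 109868 CPM in members of high score. In the 81 members with a score of 8 or more, Ighm reached at most 239.2 CPM, Fcnb 9.72 CPM, Slc26a5 367 CPM and Slc4a11 3030 CPM. Because of these cells, some results below are also given for the 81 members, a split chosen after the values were seen. Where the 81 are not named, a value is that of all 87 members and can differ in the 81.

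**Figure D1:**
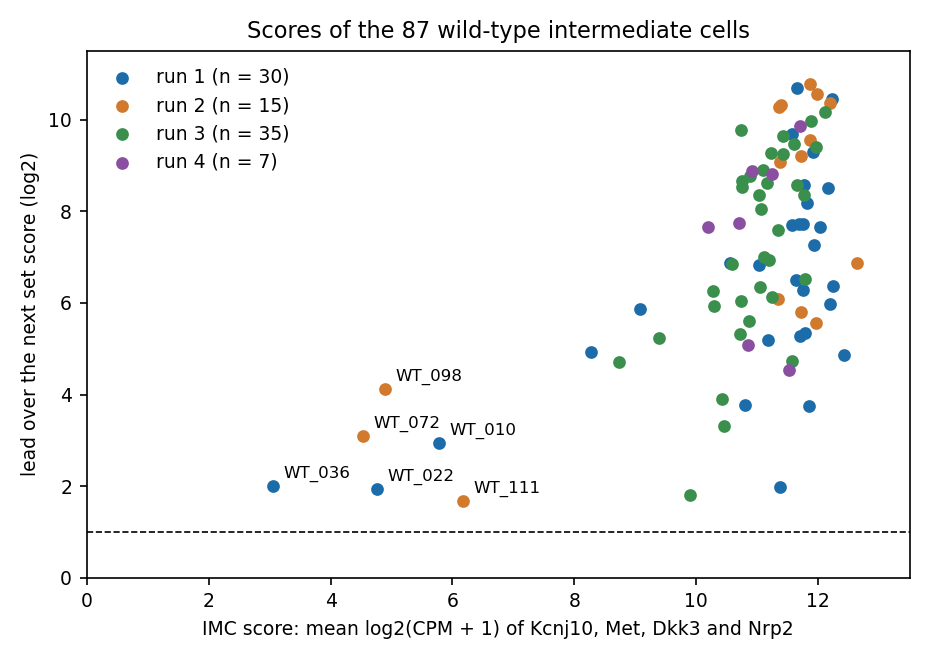
Each point is 1 of the 87 members, placed by its IMC score (x, log2 scale) and by the lead of that score over the next set (y, log2 scale), and coloured by run. The dashed line is the lead of 1 that the rule asks for, and the 6 named cells lie apart at scores of 3.05 to 6.17 while the other 81 lie at 8.27 or more.

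The threshold of the rule passed through few cells. The members nearest to it were WT_111 with a lead of 1.68, WT_188 with 1.82, WT_022 with 1.93 and WT_004 with 1.97. Outside it, WT_032 had an IMC score of 7.88 and a lead of 0.98, its next score being that of RCs. WT_003 and WT_020 led by 1.46 and 1.32 but had 10134 and 19255 counts, and WT_016 and WT_203 had leads of 0.00 and 0.05. WT_004 and WT_188 had MC scores of 9.40 and 8.07 beside IMC scores of 11.37 and 9.89. The 4 MC genes together reached 1000 CPM in 11 members (highest 3261 CPM, median over members 147.5 CPM), and the part of cells or RNA taken up together in this was not tested.

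Of 12102 genes with a mean of 10 CPM in any of the 5 sets, 1.78% were highest in the members by 2 or more on the log2 scale, which is 4-fold, and 98 genes (0.81%) were lowest by as much. The median difference of members from the next highest set over all 12102 genes was -0.91. As the sets were made from these cells, these shares describe the sets. With the 81 members of high score, the number of genes highest was 1.13 times as large and held all of these genes. At log2(CPM + 10), 120 genes were highest, which were 55.6% of them. Without run 3, 75% of the genes were called again, the smallest share on leaving out a run.

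The 25 genes that stood farthest above the next set, among 1399 genes with a mean of 50 CPM and a count in 75% of members, spanned differences from 7.77 down to 5.82 on the log2 scale. Dkk3 led with 7.77, and Nrp2 (7.595) and Kcnj10 (5.91) are rule genes too. Among genes the rule did not use, Tyr, the rate-limiting enzyme of melanin synthesis, differed by 7.73, the melanosome transporter Slc45a2 by 7.52, Gpnmb, a glycoprotein of melanosomes and lysosomes, by 7.43, and Dct, dopachrome tautomerase, by 6.64. Tspan10, a tetraspanin known from pigment cells, differed by 6.14. Spon1, a secreted matrix protein, differed by 7.37, and Hpse, heparanase, which cuts heparan sulphate, by 6.89.

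Several of these 25 genes are known from other cells of neural crest or neural origin. Glrb, the beta subunit of the glycine receptor, was at 0 to 4484 CPM with a median of 1206 CPM and differed by 5.98. Nrcam, a neural adhesion molecule, differed by 5.92, Scn4b, a beta subunit of sodium channels, by 6.35, and Nmnat2, which makes NAD in axons, by 5.82. Alpl, tissue-nonspecific alkaline phosphatase, differed by 7.24 and was at a median of 1347 CPM. Other genes of the 25 were Wdr91 (6.49), Ednrb (6.45), Olfml1 (6.37), Bace2 (6.32), Cttnbp2 (6.25), Rapgef3 (6.08), Edil3 (5.98), Col5a3 (5.86) and Cers6 (5.85). All 25 stayed above the next set without each run in turn, after thinning to 20000 counts and by TPM, and their median difference ranged from 5.55 to 7.15 over these settings against 6.37 as given, and was 4.91 at log2(CPM + 10).

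**Figure D2:**
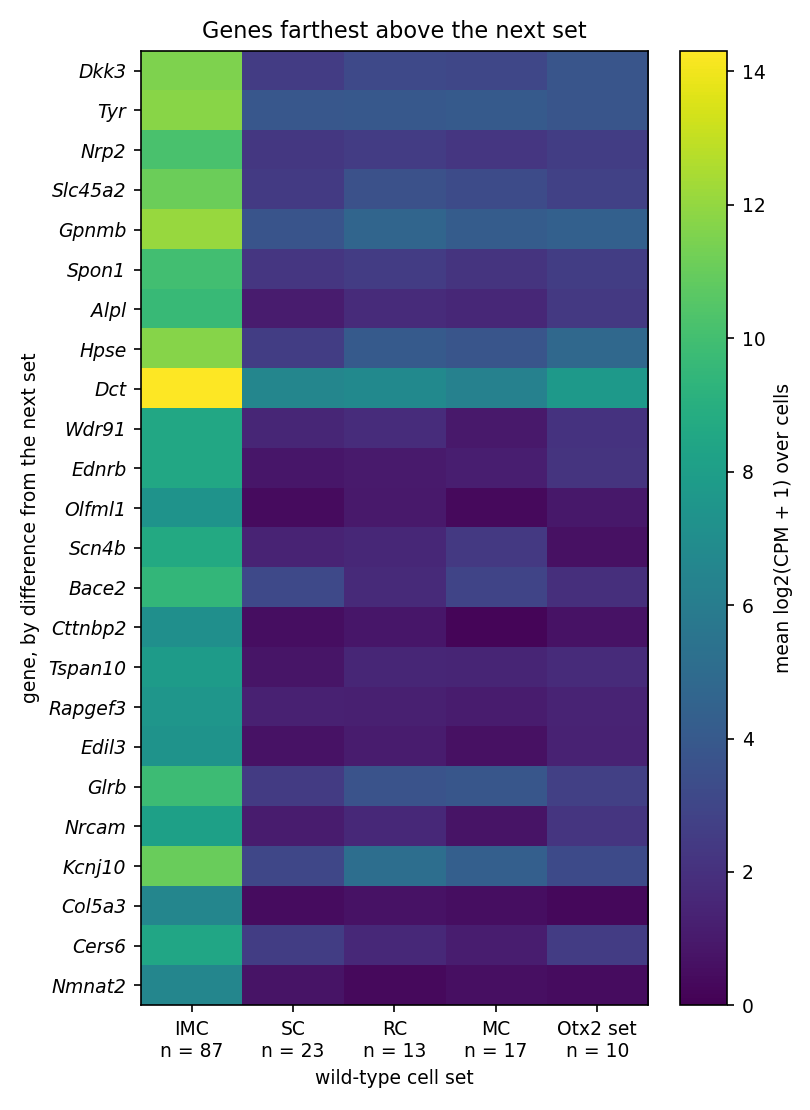
Rows are 24 of the 25 genes in order of their difference from the next set, columns are the 5 wild-type cell sets with their number of cells, and colour gives the mean log2(CPM + 1) over cells. The IMC column is the brightest in every row, and Dct has the highest level in each column, the other sets included.

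RNA of these genes was also counted in the other sets, at a low level. Dct had counts in all 63 wild-type cells of the 4 other sets, with medians of 82.3 CPM in SCs, 111.8 CPM in RCs, 98.5 CPM in MCs and 146.2 CPM in the Otx2 set, against 28809 CPM in members. Tyr had medians of 5.51 to 15.3 CPM there and 5502 CPM in members. Median depth was 990585 counts in members and 1161390 to 1831840 counts in the other sets. The highest of these cells reached 3186 CPM of Dct, below the 4354 CPM of the lowest member of high score. The source of the low counts was not tested.

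Pigment genes were uneven among the members. Of 27 pigment genes tested, 10 were highest in members by 2 or more and none was lowest, beside 1.78 and 0.81% of all genes tested. The median difference of the pigment genes was 0.77 against -0.91 over all genes tested. Dct ranged from 27.5 to 78716 CPM with a median of 28809 CPM, and it was at 10000 CPM or more in 74 of the 81 members of high score. Tyr ranged from 5.82 to 17464 CPM around a median of 5502 CPM, Gpnmb from 9.35 to 18484 CPM around 6786 CPM, and Slc45a2 from 4.68 to 10236 CPM around 3446 CPM. The lowest value of each was in a member of low score, while WT_072, also of low score, was within the range of the other 81 for Dct, Gpnmb and Slc45a2. In these 81, Dct was at 4354 CPM or more, Gpnmb at 554 CPM or more, Tyr at 97.8 CPM or more and Slc45a2 at 38.5 CPM or more, so that Tyr overlapped the low-score members, which reached 458 CPM. In 79 of these 81, all 4 genes were at 100 CPM or more.

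The other pigment genes called highest were lower in level. Mlana, a melanosome protein, had a median of 110.9 CPM and a count in 82.8% of members, and Gpr143, a receptor of the melanosome membrane, had 108.2 CPM and 67.8%. The transport genes Myo5a (238.3 CPM), Rab27a (32.6 CPM), Hps3 (136.9 CPM) and Lyst (114.03 CPM), which act in moving or forming melanosomes and lysosome-related organelles, completed the 10. Cd63, a tetraspanin of such organelles, was at a median of 1688 CPM and exceeded the next set by 1.45.

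By contrast, other melanosome genes were at or near 0. Tyrp1, the melanin enzyme related to Tyr and Dct, had 0 counts in every member, both in the gene table and in its 4 transcripts. Over the 103886067 counts of all members, a count of 0 allows a level of up to 0.0289 CPM, counting error only. Counts are reads with no molecular identifiers, and RNA that was not captured gives none, so this does not bound the RNA in the cells. Pmel, which forms the fibrils of the melanosome, had 31 counts in all, in 1 member, and Oca2, a melanosomal anion channel, had 13 counts in 1 member. Slc24a5, a melanosomal cation exchanger, had counts in 25 members and a mean of 28.7 CPM. In the whole series, Tyrp1 had counts in 3 cells and Pmel in 3. The 3 enzymes of melanin synthesis thus stood at a mean of 19355 TPM for Dct, 2970 TPM for Tyr and 0 TPM for Tyrp1, TPM being the level relative to all transcripts of a cell, corrected for length.

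**Figure D3:**
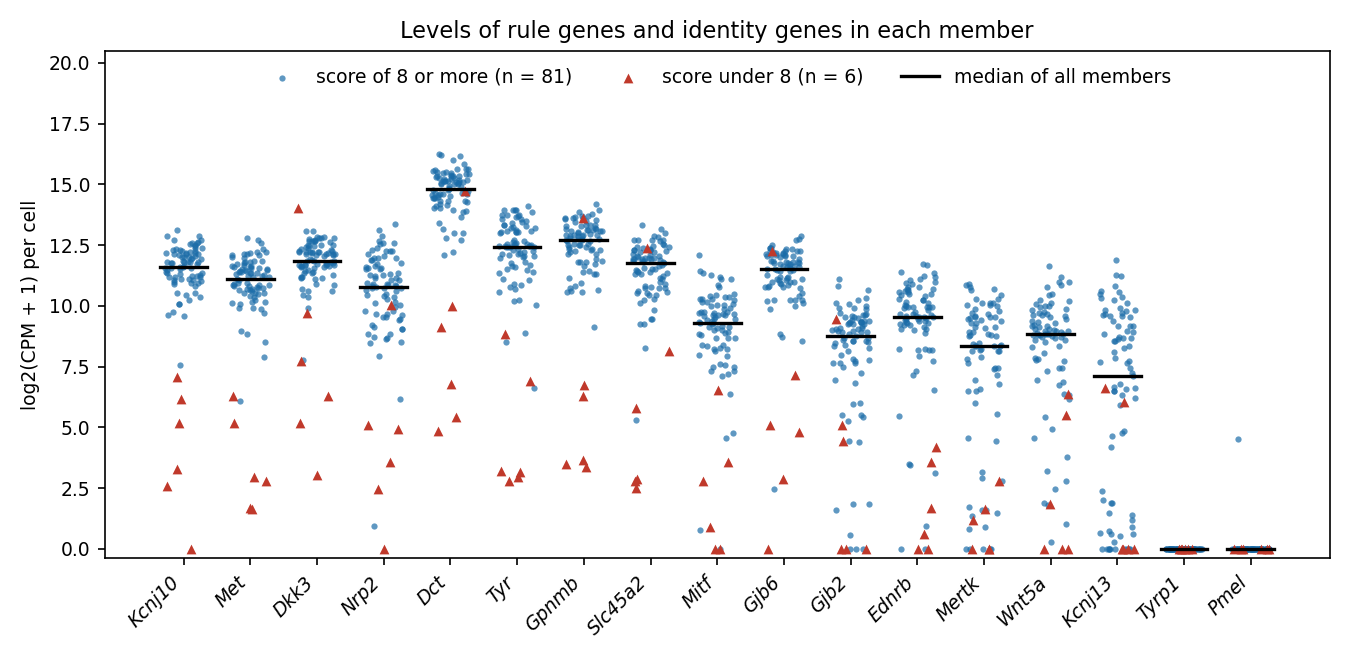
Each point is 1 member and each column 1 gene, with log2(CPM + 1) on the y axis. Bars are medians over the 87 members, and red triangles are the 6 members of low score. Dct lies highest with a median of 28809 CPM, all 6 triangles lie below the other cells for Kcnj10 and overlap them for most other genes, and Tyrp1 and Pmel lie at 0 in all or all but 1 of the members.

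The promoters of these 3 enzymes share a motif. TCATGTG, or its reverse complement CACATGA, is a form of the site that MITF is known to bind, and it was searched on both strands in the 250 bases before each start in RefSeq (GRCm38.p6). It was found for 3.72% of 27025 genes, for 2.29% of the 9117 genes of the table that were also tested for level, for 11 of the genes highest in members (6.96% of those with a promoter in the table) and for 7 of 25 pigment genes. Of the 25 genes farthest above the next set, 19 are in the table, and Tyr, Dct and Tspan10 hold it. Dct also holds a match at -232 to -226, whose window is not shown. The windows below are 60 bases, written 5′ to 3′ on the strand of the gene, with the motif in capitals, and they are shown because Tyr and Dct were high, Tyrp1 was at 0, and Tspan10 and Kcnj13 were among the genes highest in members.
Tyr, chr7:87493513-87493572, minus strand, motif at -22 to -16: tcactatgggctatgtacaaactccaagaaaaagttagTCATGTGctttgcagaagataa
Tyrp1, chr4:80834140-80834199, plus strand, motif at -47 to -41: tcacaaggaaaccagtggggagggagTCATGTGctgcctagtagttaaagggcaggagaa
Dct, chr14:118052364-118052423, minus strand, motif at -151 to -145: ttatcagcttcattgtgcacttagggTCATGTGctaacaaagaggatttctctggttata
Tspan10, chr11:120442571-120442630, plus strand, motif at -21 to -15: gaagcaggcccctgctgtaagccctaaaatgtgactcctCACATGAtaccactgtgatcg
Kcnj13, chr1:87394808-87394867, minus strand, motif at -112 to -106: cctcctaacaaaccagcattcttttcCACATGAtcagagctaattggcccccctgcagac
Tyr and Tyrp1 both carry the motif, while in members Tyr had a median of 5502 CPM and Tyrp1 had 0 counts. The related form TCACGTG or CACGTGA was found for 3.58% of all genes, for 5.79% of those tested for level, for 4.43% of those highest in members, for 5 of 25 pigment genes and for 1 of these 19 genes (Cers6). A match says only that these letters occur in the window.

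The transcription factors of the melanocyte lineage were split. Of 8 tested, Mitf and Pax3 were highest in members by 2 or more, beside 1.78% of all genes tested. Mitf, the master regulator of pigment cells, ranged from 0 to 4417 CPM with a median of 629 CPM and exceeded the next set by 5.69. Pax3, which acts upstream of Mitf, had a median of 25.6 CPM, a highest value of 896 CPM, and a difference of 3.38. Sox10, a neural crest factor, was at a median of 331 CPM and was higher in the Otx2 set, with mean log2(CPM + 1) of 8.54 against 7.69 in members. Sox9 was higher in each of the other 4 sets than in members (4.98 to 9.54 against 3.86), and Foxd3 had 0 counts in every member.

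Mitf has several starts, and the transcripts from the downstream one are those known from melanocytes. Transcripts that begin at or after position 97991792 on chromosome 6 took 68.2% of the 87030 Mitf counts of members, with 62.9 to 73.4% over the 4 runs. Mitf-201, which begins there, took 62.3% (57.4 to 66.9% over runs), and Mitf-202, which begins at 97807058, took 27.01%. In SCs and MCs the downstream share was 26.8 and 16.8%, but of 1542 and 1208 counts, with 10 counts or more in 6 cells each. The share in RCs and in the Otx2 set rested on few counts, with 10 or more in 1 and 2 cells.

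K+ channels and pump subunits gave 4 of 22 genes highest by 2 or more and none lowest, beside 1.78 and 0.81% of all genes tested. Besides Kcnj10, a rule gene, the 4 were Kcnj13, another inward rectifier, Kcnn4, a calcium-activated K+ channel, and Atp1b3, a beta subunit of the Na+/K+-ATPase. Kcnj13 ranged from 0 to 3782 CPM with a median of 137.3 CPM and was at 1000 CPM or more in 11 and under 10 CPM in 24 of the 81 members of high score. Kcnn4 ranged from 0 to 1699 CPM around a median of 236.96 CPM. Atp1b3 ranged from 2.23 to 8050 CPM around 3020 CPM, and was at 715 CPM or more in every member of high score.

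Other pump subunits and transporters stood on either side of MCs. Atp1b1, a beta subunit of the Na+/K+-ATPase, had a mean of 6331 TPM, with 5.82 to 26750 CPM around a median of 10097 CPM, and was highest in members by 1.79. With the 81 members of high score, its difference was 2.24. Atp1b2, the beta subunit that MCs are known for, had a median of 44.8 CPM and lay 6.81 below MCs. The MC transporter Slc12a2 had a median of 194.9 CPM and lay 2.03 below MCs, and Kcnq1 and Kcne1, the MC secretory channel and genes of the rule for MCs, had medians of 0.934 and 1.40 CPM. Slc26a4, which is deleted in the knockout mice, had a mean of 2.41 CPM in members against 888 CPM in SCs and 1290 CPM in RCs.

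Of 14 junction genes tested, 6 were highest in members by 2 or more, beside 1.78% of all genes tested. Gjb6 and Gjb2, the connexins of cochlear gap junctions, had medians of 2959 and 433 CPM, with ranges of 0 to 7477 and 0 to 2175 CPM, and exceeded RCs, the next set, by 3.38 and 2.27. Gja1 was at 10 counts or more in 2 members, and Gjb1 had 0 counts. The cadherins Cdh19 (median 256.9 CPM, difference 5.31) and Cdh2 (2.03 CPM, 2.87), Ctnnb1, encoding beta-catenin (190.3 CPM, 2.34), and the adhesion gene Mpzl2 (2990 CPM, 2.11) made up the 6. Cldn11, the tight junction gene of basal cells, had a median of 3.14 CPM. For Cdh2 the mean of 106.97 CPM rested on 37 members with 10 or more counts.

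Receptors lay on both sides. Of 22 tested, Ednrb, Met, Nrp2 and Mertk were highest by 2 or more, and Plxnb1, Fgfr1, Bmpr1b and Fzd3 lowest by 2 or more. The shares over all genes tested were 1.78 and 0.81%, and Met and Nrp2 are rule genes. Ednrb, the endothelin receptor that melanocyte precursors need, ranged from 0 to 3423 CPM around a median of 738 CPM and differed from the next set by 6.45. Mertk, a receptor for the clearance of dead cells and membranes, ranged from 0 to 1910 CPM around 323 CPM and differed by 3.78. Kit, on which melanoblasts depend, had 693 counts in 4 members, of which 88.04% came from the retained intron transcript Kit-207. Of these counts, 691 lay in 2 members of low score, and the 81 members of high score held 2. Mc1r, the melanocortin receptor, had a median of 0.94 CPM, and Erbb3 and Ngfr had 10 counts or more in 0 and 3 members. For Ngfr, 2 of these 3 were members of low score.

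Among 20 ligand genes tested, Wnt5a and Ptn were highest by 2 or more and none lowest, beside 1.78 and 0.81% of all genes tested. Wnt5a, a ligand of non-canonical Wnt signalling, ranged from 0 to 3209 CPM around a median of 453 CPM and exceeded MCs by 2.15, and Ptn (pleiotrophin) had a median of 39.2 CPM. Vegfa was at 66.6 CPM, with mean log2(CPM + 1) of 4.84 in members and 4.34 in MCs. Hgf, the ligand of Met, had 10 counts or more in no member and a mean log2(CPM + 1) of 4.399 in MCs against 0.19 in members. Edn3, the ligand of Ednrb, had 1 count in all members, and Kitl had counts in 9.

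A list of 13 deafness genes was chosen with earlier results of these data known. It does not hold all deafness genes, so its count says nothing of deafness genes at large. Beside 1.78% of all genes tested, 9 of the 11 genes of this list that were tested were highest in members by 2 or more. These were Kcnj10, Met, Mitf, Gjb6, Ednrb, Gjb2, Mpzl2, Pax3 and Pde1c, the last a phosphodiesterase with a median of 153.2 CPM. Kcnj10 and Met are rule genes. All of the 9 but Pax3 and Pde1c are also genes that the study names for IMCs from these cells, so the count is not independent evidence. The same holds for the 19 genes the study names for IMCs, which include the 4 rule genes. Of the 19, 18 were highest by 2 or more and Cav1 was not (4.80 in members against 5.87 in the Otx2 set). Of these 19, Thrsp, a regulator of lipid synthesis, had a median of 444 CPM, C4b, a complement component, 184.7 CPM, and Syt4, a synaptotagmin, 181.7 CPM.

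Per length, the most abundant nuclear gene with a protein name was Dct, at 19355 TPM. Ptgds, prostaglandin D2 synthase, was at 14772 TPM, Gsta4, a glutathione transferase, at 8429 TPM, Ftl1, the ferritin light chain, at 7525 TPM, and Atp1b1 at 6331 TPM. Fth1 (5616 TPM), Hhatl (4588 TPM), Aldoa (4065 TPM), Cd63 (3570 TPM), Gpnmb (3407 TPM), Bsg (3079 TPM) and Cox4i1 (3032 TPM) came next. For Ptgds and Bsg the mean log2(CPM + 1) was 1.18 and 0.40 below that of the highest other set. The 2 predicted genes Gm17374 and Gm20594 had the largest mean TPM of all, 29883 and 23383, but Gm17374 had a median of 8.73 CPM and means of 2043 CPM in run 1 against 2.92 to 77.5 CPM in runs 2 to 4.

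Genes of redox and metal handling gave 1 of 27 tested highest by 2 or more, and none lowest, beside 1.78 and 0.81% of all genes tested. This was Gsta4, which ranged from 5.08 to 14131 CPM around a median of 4453 CPM and exceeded MCs by 4.48. Ftl1 was the least variable of the 2108 genes with a mean of 100 CPM, with an SD over members of 1.02 on the log2 scale, and it ranged from 281.7 to 16260 CPM. Fth1, the heavy chain, exceeded the next set by 1.78, and by 2.14 with the 81 members of high score. Gpx3, a secreted glutathione peroxidase, was at a mean log2(CPM + 1) of 4.93 in members against 10.54 in SCs, 10.60 in MCs and 12.60 in the Otx2 set.

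None of 17 calcium genes was highest by 2 or more, and the plasma membrane pump Atp2b1 and the channel Trpv4 were lowest by 2 or more. The shares over all genes tested were 1.78 and 0.81%. Atp2b1 had a mean log2(CPM + 1) of 4.45 in members against 6.69 to 8.72 in the other sets, and Trpv4 one of 0.54 against 3.08 to 6.94. S100b, a calcium-binding protein of glia and melanocytes, exceeded MCs by 1.18. Of 17 glycolysis genes, none was highest or lowest by that size. The differences were largest for Aldoa (11.53 against 9.84 in the next set), Tpi1 (6.84 against 5.25) and Gpi1 (8.63 against 7.04), and Ldhb was at 9.63 in members and 10.02 in MCs.

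Markers of other cell types were low in most members. The 12 macrophage genes together ranged from 0 to 37815 CPM around a median of 6.45 CPM, reached 1000 CPM in 2 members, both of low score, and Adgre1, C1qb and Mrc1 had 0 counts. The 8 endothelial genes ranged from 0 to 1655 CPM around 8.11 CPM, with Tek at 0, and the 7 pericyte genes from 0 to 819 CPM around 19.5 CPM, with Kcnj8 and Vtn at 0. The pericyte sum rested on Cspg4, which is also a melanocytic surface antigen (mean 88.3 CPM, 10 counts or more in 31 members). The 10 basal cell and fibrocyte genes had a median of 133.6 CPM and reached 1000 CPM in 11 members, the highest being WT_098 at 21590 CPM. Erythroid genes reached 1000 CPM in 5 members, among them WT_072 at 40689 CPM and WT_038 of high score at 21261 CPM. Their part in the levels of the members was not tested, and the counts without the 6 low cells are those given above.

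Schwann cell genes were split. Pmp22 (median 280.6 CPM) was highest in members by 2 or more, Mal was lowest, and Prx and Egr2, known from myelinating Schwann cells, had means of 1.22 and 0 CPM. Cycle genes had a summed median of 12.6 CPM and exceeded 1000 CPM in WT_036 alone of the 87. Immediate early genes, which dissociation is known to induce, summed to a median of 73.2 CPM and a highest value of 1817 CPM, with 1000 CPM reached in 2 members.

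The members varied most in genes that were high in some cells and at 0 in others. Over the 2108 genes with a mean of 100 CPM, the SD of log2(CPM + 1) had a median of 3.49, and 83 genes had counts in all members. The 10 with the largest SD were Slc13a4, Tgfbr2, Aqp5, Arsb, Rlbp1, Rab31, Ldha, mt-Atp6, Lamb2 and Mxra8 (SD 4.48 to 4.16). Slc13a4, a sulphate transporter, was at 1000 CPM or more in 27 and under 10 CPM in 30 of the 81 members of high score. Aqp5, a water channel, was at 100 CPM or more in 33 and had 0 counts in 29. Rlbp1, a retinaldehyde-binding protein, was at 100 CPM or more in 47 and at 0 in 20. By run, the mean of Slc13a4 was 719 to 1317 CPM and that of Tgfbr2 was 580 to 666 CPM in runs 1 and 2 against 185.4 to 205.9 CPM in runs 3 and 4. Since 1 cell gives few molecules and no identifiers were used, cells at 0 cannot be told apart from cells whose RNA was not captured.

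The steadiest genes beside Ftl1 were Bsg, Cox4i1, Ctsb, mt-Co1, Psap, Gm20594, Ddx5, Ptgds and Aldoa, with SDs of 1.28 to 1.47. Ctsb and Psap act in lysosomes, and were at means of 6010 and 1853 CPM. Over the 81 members of high score, Tyr and Slc45a2 had a Pearson r of 0.38 and a Spearman rho of 0.46, Tyr and Gpnmb had 0.39 and 0.19, and Tyr and Dct had 0.10 and 0.07. Kcnj10 and Tyr had 0.35 and 0.33, and Kcnj10 and Gjb6 had -0.08 and 0.00. These values describe cells that share runs and sessions and that the labels do not tie to mice, and Slc45a2 and Gjb6 also had a rho of 0.35 each with depth.

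Beyond the gene level, 25 genes of the rule, pigment, transcription factor and receptor lists had 2 or more quantified transcripts and a mean of 50 CPM, and 10 had 1 transcript. The leading transcript took a median of 62.3% of estimated counts and was protein coding in 23 of the 25 genes. The exceptions were Tyr and Myo5a. Tyr-202, annotated as a processed transcript with no coding sequence, took 56.8% of the 629224 Tyr counts (53.4 to 64.1% over runs) and 74.2% of the TPM, against 42.6% for the coding Tyr-201. Both share exons 2 and 3 on chromosome 7 and the downstream end of exon 1. Tyr-202 then ends with an exon at 87469120 to 87470185, inside intron 3 of Tyr-201, which goes on to exons at 87437937 to 87438118 and 87424771 to 87429284. For Myo5a, Myo5a-202, annotated for nonsense-mediated decay, took 53.3%, with 18.1 to 61.2% over runs.

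Other genes divided their counts between coding forms. Ednrb-201 took 56.4% (49.6 to 67.7% over runs) and Ednrb-202 43.6%, and Gpnmb-201 took 63.1% (39.4 to 73.3%) and Gpnmb-203 32.6%. The leading form of Nrp2 took 66.6% (55.5 to 78.2%). The leading forms of Mertk, Notch1 and Cd63 took 98.7% or more. For Met, Met-203 led by counts with 46.7% (39.8 to 52.9%), but Met-204, a short form of 884 bases, led by TPM with 51.8%, and a retained intron form, Met-205, took 34.1% of counts. Counts and TPM named the same leading transcript in 18 of the 25 genes. Estimated counts split reads that several transcripts share, so a share rests on the reads that tell them apart.

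**Figure D4:**
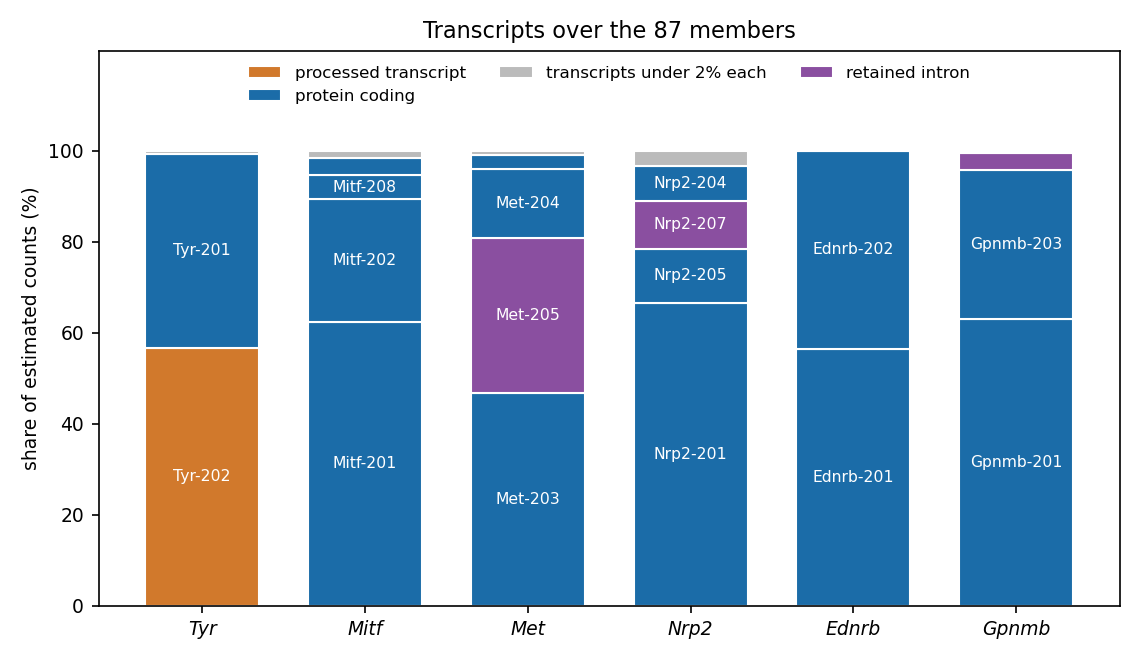
Bars give the share of the estimated counts of a gene, summed over the 87 members, that each transcript took, coloured by its annotated type, with transcripts under 2% of their gene joined in grey. Of Tyr, 56.8% lies in a transcript with no coding sequence, and Met has the largest retained intron share (34.1%).

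Age was a label that the rule did not use, and it was tested over the 22 sessions, from P22 to P42, by edgeR's quasi-likelihood test on summed counts with the run as a term. Sessions, which differ in day or age, were taken as the samples, and the number of mice behind each is not given in the labels. None of 11790 genes changed with age at a Benjamini-Hochberg adjusted p under 0.05 (0% called), while 1182 had an unadjusted p under 0.05, of which 434 had a rising and 748 a falling slope. On the same sessions DESeq2 called 3.16% of 7682 genes, limma 1 gene of 9001, and edgeR with no filter on low counts 0.622% of 17845. With the 81 members of high score edgeR called 0.

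The smallest p belonged to Ftl1. Its session means ran from 1427 to 10980 CPM around 4430 CPM. The highest session, at P40 in run 2, had 2 members, 1 of them WT_072 of low score at 16260 CPM. The 81 members of high score reached at most 9577 CPM. The lowest session, at P23 in run 1, held 996364 counts over 13 members. The part of WT_072 and of depth in the slope was not tested. The median of Ftl1 was 1756 CPM in the 5 sessions of P26 or younger and 6030 CPM in the 5 sessions of P33 or older. Its slope was 0.14 per day on the log2 scale (SE 0.03, edgeR adjusted p = 0.102). Lamb2, a laminin chain, had session means from 0 to 2104 CPM, with medians of 844 CPM in the younger and 0.79 CPM in the older of these sessions, and a slope of -0.56 per day (SE 0.13, edgeR adjusted p = 0.11). The older median was set by the 3 sessions of run 2, for the 2 sessions of run 4 at P33 and P34 had 123.4 and 326 CPM, and the slope without run 2 was -0.22. Lamb2 was the 1 gene that limma called. Run 2 alone holds sessions older than P34, and without run 2 the lowest edgeR adjusted p over all genes was 0.518.

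The other genes with the smallest p were low, with session medians of 0 to 15.2 CPM. They were Trit1, Spata2l, H2-Ab1 and Cdca3 with slopes above 0 and Gm9958, Ccdc17, Smad4 and Pram1 with slopes below 0, and edgeR adjusted p was 0.102 to 0.148. Identity genes had intervals that included 0, of unequal width. The slope of Dct was 0.01 per day (95% interval -0.04 to 0.06), that of Gpnmb 0.01 (-0.05 to 0.07), that of Tyr -0.04 (-0.10 to 0.02) and that of Mitf 0.11 (-0.01 to 0.22). The intervals of Pax3 (-0.17 to 0.41) and Mlana (-0.08 to 0.23) were wider. Session means of Dct ran from 12940 to 51231 CPM and overlapped between ages. Of 26 pigment genes tested, Hps6, Bloc1s5 and Trpm1 had an unadjusted p under 0.05, a share close to the 1182 of 11790 over all genes tested. Their session medians were 0 to 1.14 CPM. No pigment gene had an adjusted p under 0.05. Granulocyte genes had 5 of 5 with an unadjusted p under 0.05 and falling slopes, and the summed level of their list was 84532 CPM in WT_111, a P23 cell, against at most 1043 CPM in any other member.

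**Figure D5:**
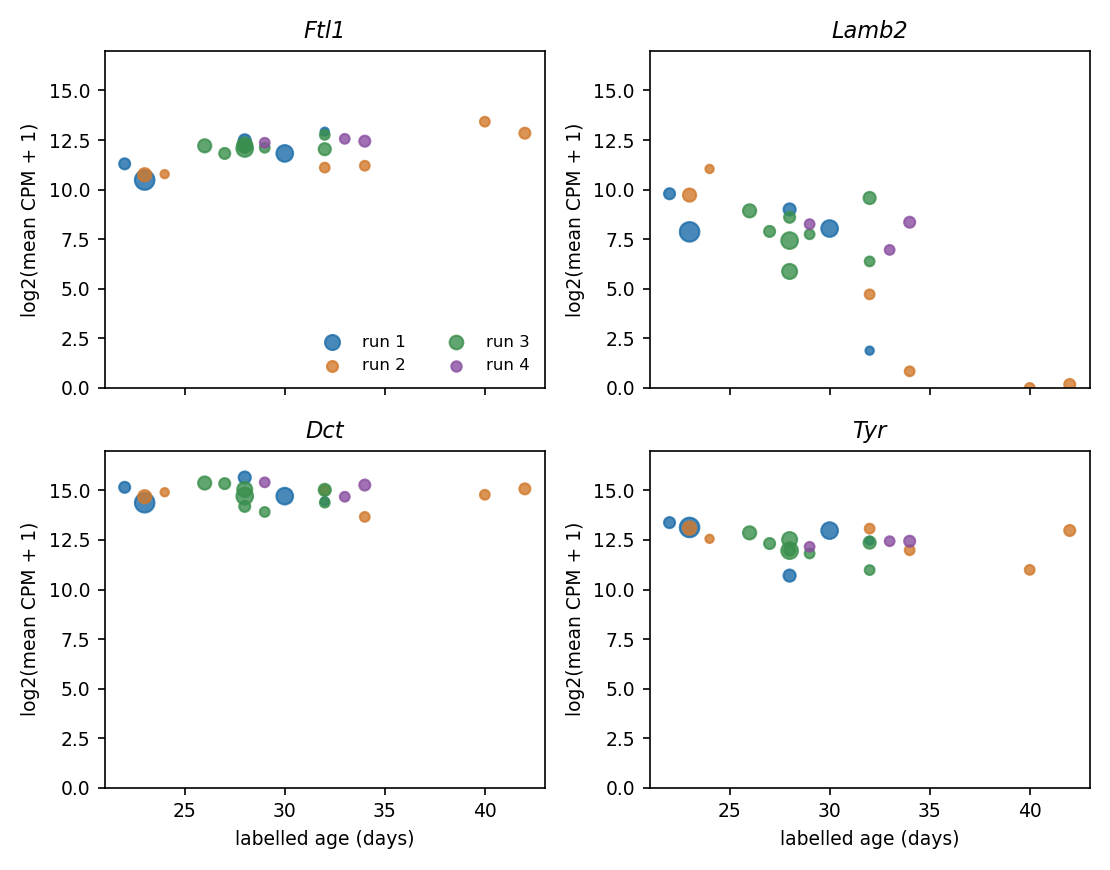
Each point is 1 session, at its labelled age in days (x) and its log2(mean CPM + 1) over members (y), coloured by run, with larger points for more members. Ftl1 spans 1427 to 10980 CPM, with the lowest sessions at P23 and the highest, at P40, holding WT_072. Lamb2 lies at 0 to 0.79 CPM in sessions of run 2 at P34 to P42. In those of run 4 at P33 and P34 it lies at 123.4 and 326 CPM. Dct and Tyr overlap across ages.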

How the data were processed

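Single cells of the SV were profiled with Smart-Seq2, and the authors quantified transcripts with kallisto, whose version is not given in the sources used here. The submitters' processing notes name GRCm38 and mm10. The authors deposited a table of estimated (expected) counts per gene for all cells, and a profile per cell with estimated counts and TPM per transcript. Of the 98492 transcripts of a profile, 1376 had no match in the GENCODE annotation used here for names and positions, and the release the authors used is not given in the sources used here. In the gene table, 17 columns belonged to no sample used here and were left out.

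CPM was computed from the deposited counts of each cell, and TPM was summed per gene. Genes with a mean of 10 CPM in any of the 5 sets were compared by mean log2(CPM + 1). Members and lists were chosen with earlier results of these data known. No doublet caller was run, as cells were picked singly. Genes named in the text were the 15 highest by TPM, the 25 farthest above the next set (mean of 50 CPM, counts in 75% of members), the 10 most variable (mean of 100 CPM) and, for age, the 5 with the smallest p in each direction. Cells are not replicates, so sets were compared without a test. Intervals and the floor of 3 counts cover counting error only, and depth ran from 20901 to 5452520 counts per member.

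The slope with age was fitted by edgeR's quasi-likelihood test (version 4.0.16, TMM, filterByExpr) on rounded counts summed per session, with the run as a term and Benjamini-Hochberg adjustment. The p-values measure the spread between sessions. The script was tested on simulated data. Alternatives changed the lead, the count minimum, the pseudocount, TPM for CPM, thinning to 20000 counts, runs or sessions left out, the filter, the run term, DESeq2 (1.42.0) and limma (3.58.1). Python 3.11.15 and R 4.3.3 were used. A few of the genes these rules name are not reported here.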

Additional observations from a re-analysis of the deposited data

How the results depend on the processing

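The number of members lay between 77 and 90 under the other leads, count minimums and TPM scores. The number of genes highest in members was 0.556 times that reported at log2(CPM + 10), with 120 genes, where differences of low genes shrink by construction, and 0.87 to 1.23 times under the other alternatives. Of 440 differences of single genes recomputed, 439 moved by less than 1 SD over members, and that of Dkk3 rose to 9.98 when cells were thinned to 20000 counts. This SD is wide, with a median of 3.49 over genes with a mean of 100 CPM, so large shifts pass the mark. Over the alternatives the difference of Alpl ranged from 5.64 to 8.65 and that of Cttnbp2 from 4.19 to 6.78. The share of genes called with age was 0% as reported, 3.16% of 7682 genes with DESeq2 (1.52% rising, 1.64% falling), 0.622% of 17845 with no filter on low counts (0.235% rising, 0.387% falling), 0.0365% (4 genes) with no run term, 0.0111% (1 gene, Lamb2) with limma and 0.018% (Ftl1 and Plod1) without run 1. Leaving out each of the 22 sessions gave 0 to 0.0172%, with Ftl1 called without the P32 session of run 1, and Ccdc17 and Lamb2 without the later P32 session of run 3. The cause of these changes was not tested. The other alternatives of this test called 0 genes. Of the shares of leading transcripts recomputed, 23 moved by more than the spread between runs, 14 of them by TPM. No paired analysis was possible because the replicate numbers name single cells and the test of age lies within 1 genotype. Members of run 1 were shallow, so genes at 0 there are less certain.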
